A study of Mus musculus with 2 samples.

Results

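Ccl3, Ccl4 and Ccl5 are CC chemokines, small secreted proteins that leukocytes release to draw other leukocytes in, and Ccr1 and Ccrl2 are receptors of the same family. These 5 of the 32285 genes in the matrices were taken by name and followed through every cell type of 2 single-cell libraries. They were chosen by their measured levels in the cell types and their differences between the libraries, so those values are a description. The libraries came from hepatocellular carcinomas of mice with the MYC-ON genotype, which all animals shared, gavaged with DMSO or with an agent labelled STK. The labels give neither the promoter that drives MYC nor the nature of STK, the strain, the age, or the number of animals per library. Live cells stained for CD45, the pan-leukocyte antigen, were sorted and profiled on the 10x Genomics 5′ platform.

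The DMSO group and the STK group were 1 library each, with the same batch label, so no difference between them has a replicate check and no test was run. After filters on depth and mitochondrial RNA, 11152 DMSO cells and 10846 STK cells were kept, with 78065924 and 79681844 unique molecular identifiers (UMIs, each a captured RNA molecule) and medians of 4471.5 and 4930.5 UMIs per cell. Levels are in CPM, the UMIs of a gene as a share of the summed UMIs of all cells of a type in a library, where 10000 CPM are 1%. Brackets hold 95% intervals, exact Poisson for a level, exact conditional binomial for a ratio and exact Clopper-Pearson for a share, and all cover counting error only. A ratio is STK over DMSO, and 1.5-fold in either direction was the size called higher or lower. Cells with female transcripts were 18.8% of the DMSO cells whose sex could be read and 74.0% of such STK cells, so in pooled cells sex and treatment cannot be told apart. In DMSO 1025 cells were read as female and 4439 as male, and in STK 4613 and 1621. The other kept cells were not assigned a sex.

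CC chemokines act on G protein-coupled receptors of leukocytes, and their name comes from a pair of adjacent cysteines near the start of the mature protein. Ccl3 and Ccl4, also known as the macrophage inflammatory proteins 1-alpha and 1-beta, are made within hours of activation by NK cells, T cells and myeloid cells, whereas Ccl5 (RANTES) is made in large amounts by effector CD8 T cells and NK cells. Ccr1 is a signalling receptor of myeloid cells that binds Ccl3 and Ccl5. Ccrl2 is an atypical receptor that does not couple to G proteins and holds the chemoattractant chemerin at the cell surface. Other receptors of these ligands were not followed singly here, although the fixed gene lists described later include some of them.

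The 3 ligand genes lie together on chromosome 11 (GRCm38, GENCODE vM21), Ccl5 at chr11:83525778-83530518 on the minus strand, Ccl3 at chr11:83647844-83649355 on the minus strand and Ccl4 at chr11:83662584-83664683 on the plus strand. Ccl3 and Ccl4 are separated by 13228 bases, and Ccl3 and Ccl5 by 117325. Ccr1 (chr9:123962124-123968692) and Ccrl2 (chr9:111054486-111057519) are both on the minus strand of chromosome 9. Because the ligands are near relatives, the coding sequences of Ccl3 and Ccl5 (GENCODE vM21, without the stop codon, capitals marking the 2 adjacent cysteine codons that define the family) are shown to let them be compared.
Ccl3: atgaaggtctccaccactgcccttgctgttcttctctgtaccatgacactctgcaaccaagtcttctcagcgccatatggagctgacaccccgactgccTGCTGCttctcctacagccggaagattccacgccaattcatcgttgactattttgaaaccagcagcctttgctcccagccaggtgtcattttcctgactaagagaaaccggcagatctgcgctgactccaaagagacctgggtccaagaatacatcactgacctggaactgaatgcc
Ccl5: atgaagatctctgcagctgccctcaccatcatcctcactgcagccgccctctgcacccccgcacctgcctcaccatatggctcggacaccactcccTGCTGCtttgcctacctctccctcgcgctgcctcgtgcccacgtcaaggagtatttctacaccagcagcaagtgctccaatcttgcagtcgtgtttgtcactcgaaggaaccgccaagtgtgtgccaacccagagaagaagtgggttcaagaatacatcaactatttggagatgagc
The cysteine pair began at codon 34 of 92 in Ccl3 and at codon 33 of 91 in Ccl5. In a global alignment 62.8% of the columns were identical between Ccl3 and Ccl5, and the longest identical run was 13 bases. Ccr1 and its neighbour Ccr1l1, 8550 bases away, were identical in 76.0% of the columns with a longest run of 31 bases.

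The Ccl3 and Ccl4 messages also carry copies of ATTTA, the core of the AU-rich elements that mark short-lived cytokine RNA for decay, in their 3′ untranslated regions. There were 5 copies in Ccl3, 2 in Ccl4, 2 in Ccrl2, 1 in Ccr1 and 0 in Ccl5. The 30-base window with the most copies is shown for each ligand that has them (2 copies in that of Ccl3, 1 in that of Ccl4), with ATTTA in capitals, because the list of decay factors described later includes the proteins that bind such elements.
Ccl3: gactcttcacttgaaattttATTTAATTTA
Ccl4: ttcagatttcctgcccctcttcttaATTTA
RefSeq promoter entries (GRCm38.p6) were matched for 3 of the 5 genes, Ccl3, Ccr1 and Ccrl2. The 250 bases before the start of Ccl3, the gene that was lower in most cell types, and of Ccrl2, which was not, are shown for comparison, with motif matches in capitals.
Ccl3: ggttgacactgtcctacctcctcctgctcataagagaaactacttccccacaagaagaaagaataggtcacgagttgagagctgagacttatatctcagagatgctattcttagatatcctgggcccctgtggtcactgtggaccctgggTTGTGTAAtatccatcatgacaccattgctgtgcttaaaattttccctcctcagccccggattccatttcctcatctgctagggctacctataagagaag
Ccrl2: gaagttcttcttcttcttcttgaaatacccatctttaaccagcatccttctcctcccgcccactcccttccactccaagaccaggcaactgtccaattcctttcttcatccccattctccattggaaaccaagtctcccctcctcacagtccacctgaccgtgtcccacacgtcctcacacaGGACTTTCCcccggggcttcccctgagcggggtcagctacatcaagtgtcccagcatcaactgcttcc
These are the minus strand of chr11:83649379-83649628 and of chr9:111057519-111057768, the latter before the first of 3 listed Ccrl2 starts. The motifs searched on both strands were the core promoter box TATAAA, the AP-1 motif TGANTCA, the cyclic AMP response element core TGACG, the C/EBP motif TTNCNNAA, the NF-kB motif GGANNTTCC and the heat shock motif GAANNTTC. They are found in 12.4%, 6.75%, 17.8%, 36.8%, 3.59% and 6.69% of the 32851 promoter windows of this length, in that order. The Ccl3 window held only TTNCNNAA, and the first Ccrl2 window only GGANNTTCC, from base -68 to base -60. The other 2 Ccrl2 windows overlap each other and share a TGACG match, and the Ccr1 window held only TTNCNNAA. No matches overlapped, and a match is a run of letters, not a shown site.

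Cells were sorted into types by small panels of marker genes, none of which is one of the 5 genes. A marker gate placed 8178 DMSO and 8245 STK cells in 20 types, of which 19 had at least 50 cells in both libraries. Another 787 and 1082 cells carried markers of several lineages and were left out as mixed, and 2187 and 1519 met no gate. The gates held their own markers at high levels. The non-classical monocyte gate is an exception, because its cells also carried the classical monocyte panel at 2463 CPM in DMSO and 2866 CPM in STK, above its own panel at 1211 and 913 CPM. The macrophage panel was also above the gate's own panel in these cells, at 1816 and 2138 CPM. The type is called by its gate here. Although CD45 was sorted for, 9.72% of DMSO cells and 7.27% of STK cells met the hepatocyte or tumour gate, where Ptprc, the gene for CD45, was at 2.79 and 2.81 CPM. This gate gave the background for chemokine RNA: after thinning every cell to 1000 UMIs, a Ccl3 UMI was seen in 0.369% of its DMSO cells and 0.254% of its STK cells, a Ccl4 UMI in 0.369% and 0.636%, a Ccl5 UMI in 0.0923% and 0.891%, a Ccrl2 UMI in 0.554% and 0.382%, and no Ccr1 UMI in either. Its cells had medians of 26225.5 and 25647 UMIs, above every other type. Thinning cut them the most, so this background may be too low for cells with fewer UMIs.

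**Figure D1:**
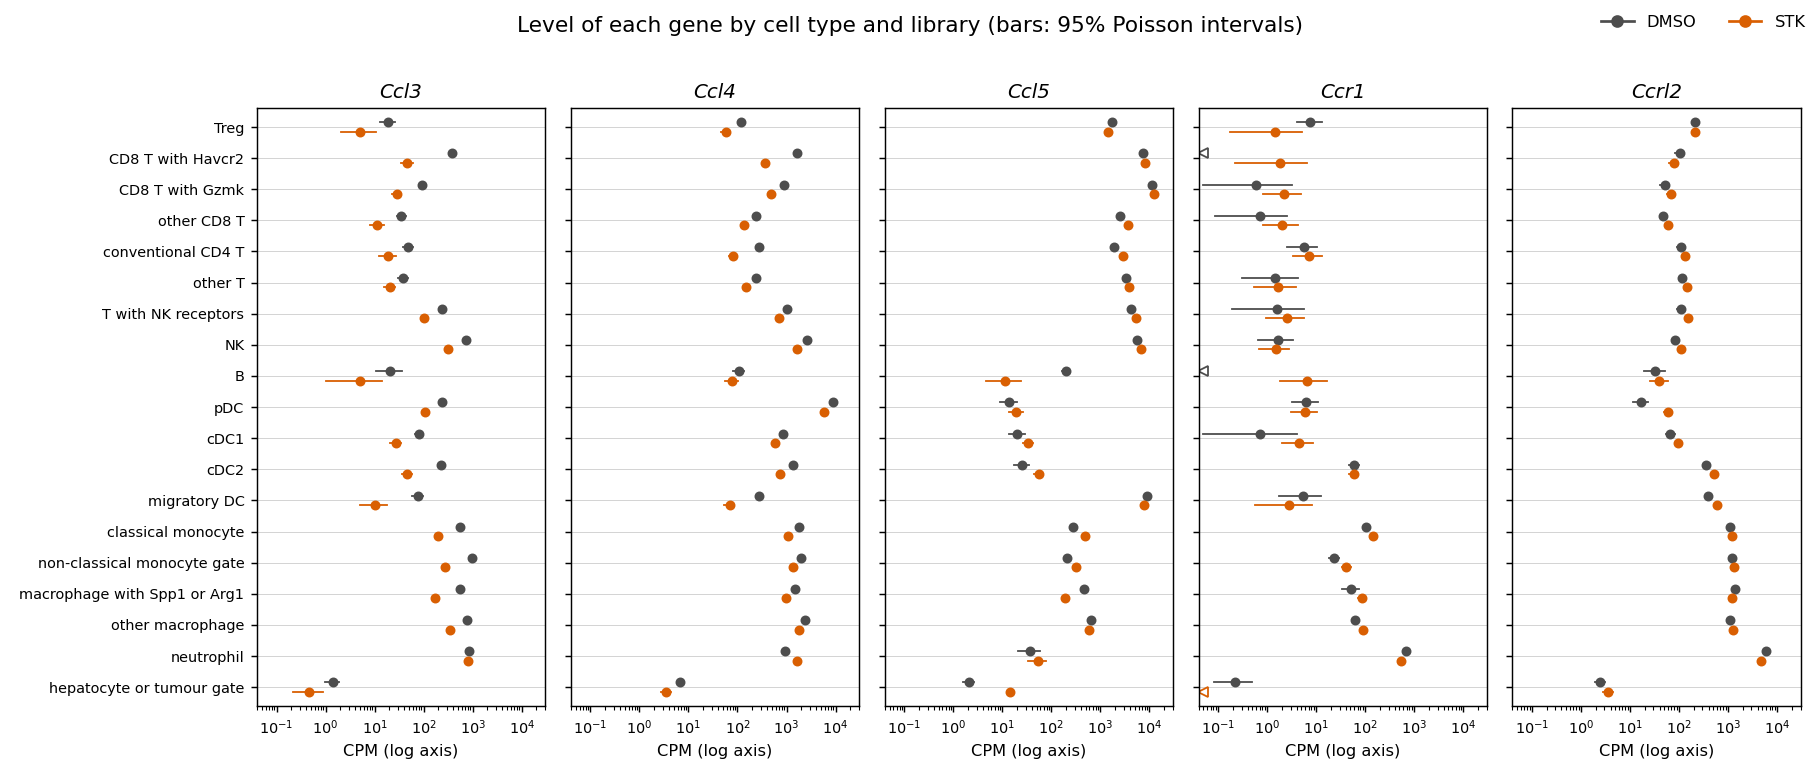
Level of each gene in each cell type, as CPM on a log axis, with 95% Poisson intervals for the DMSO library (grey) and the STK library (orange). An open triangle at the left edge marks a library with no UMI, and intervals are drawn from 0.05 CPM upward. Ccl4 reached its highest levels in pDC, Ccl5 in CD8 T cells with Gzmk, and both receptors in neutrophils.

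Each gene had its own range of sources. Over the summed UMIs of all kept cells, Ccl3 was at 247 CPM in DMSO and 118 CPM in STK, Ccl4 at 1150 and 933 CPM, and Ccl5 at 1349 and 2023 CPM. Ccr1 was at 21.3 and 27.5 CPM and Ccrl2 at 349 and 378 CPM. Of all Ccl3 UMIs in DMSO, 16.8% came from macrophages without Spp1 or Arg1, 16.8% from the non-classical monocyte gate and 16.5% from NK cells. NK cells were the largest single source of Ccl5, with 22.6% of its UMIs in DMSO and 24.9% in STK, and pDC gave 18.9% and 16% of the Ccl4 UMIs. These totals mix the level in each type with how many of its cells were sorted and how many UMIs those cells held. The hepatocyte or tumour gate, with little RNA of these genes, gave 27214373 of 78065924 UMIs in DMSO and 19195094 of 79681844 in STK. The types are therefore described separately below.

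Ccl3, the first of the ligands, was lower in the STK library in all 19 cell types, and at least 1.5-fold lower in 18 of them. Its median ratio over the types was 0.331, which is 3.02 times lower, and the interval of the ratio lay below 1 in 18 types. Neutrophils were the exception, with 848 CPM in DMSO and 810 CPM in STK, a ratio of 0.955 [0.822 to 1.11]. For scale, a gene was compared in a type where its higher library reached 50 CPM and 50 UMIs, and of 54980 such pairs of gene and type 3.76% were at least 1.5-fold lower in STK and 4.97% at least 1.5-fold higher. Ccl3 met that minimum in 13 types and was lower in 12 of them. By its median ratio Ccl3 was 13th from the lowest of 3849 genes that met the minimum in at least 5 types. Since the genes were chosen for these contrasts, the rank describes the choice and supports nothing.

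Myeloid cells and NK cells held the highest Ccl3 levels in DMSO. The order there ran from the non-classical monocyte gate at 962 CPM [930 to 996] through neutrophils at 848 CPM [764 to 939] and macrophages without Spp1 or Arg1 at 769 CPM [743 to 796] to NK cells at 744 CPM [718 to 770], with the intervals of neighbours overlapping. In STK the same 4 types were at 278 CPM, 810 CPM, 344 CPM and 321 CPM, so neutrophils then stood clear of the rest. Their ratios were 0.289 in the non-classical monocyte gate, 0.448 [0.422 to 0.474] in macrophages and 0.432 [0.408 to 0.457] in NK cells. In NK cells 2.13% of 3141 genes were at least 1.5-fold lower and 3.66% at least 1.5-fold higher, and in macrophages 2.67% and 3.91% of 2918 genes. Classical monocytes had 563 CPM in DMSO and 196 CPM in STK, a ratio of 0.349 [0.320 to 0.380], in a type where 4.59% of 3050 genes were lower and 5.25% higher by that size. Macrophages with Spp1 or Arg1, genes of tumour-associated macrophages, went from 560 to 171 CPM.

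The lowest Ccl3 ratios were in CD8 T cells with Havcr2, migratory dendritic cells and type 2 conventional dendritic cells. CD8 T cells with Havcr2, the gene for the checkpoint receptor TIM-3, had 376 CPM in DMSO and 46.3 CPM in STK, 8.13 times lower. Migratory dendritic cells, which carry antigen to lymph nodes, had 76.0 and 10.1 CPM, from 70 and 11 UMIs. Type 2 conventional dendritic cells had 231 and 46.3 CPM, and CD8 T cells with Gzmk, a granzyme of early effector cells, 93.6 and 28.1 CPM. In each of these types the counting intervals of the libraries did not overlap, but the UMIs were concentrated in few cells. The top 3 cells held 47.8% and 49.0% of the UMIs in CD8 T cells with Havcr2, and 27.5% and 26.7% with Gzmk. In type 2 conventional dendritic cells they held 44.8% and 47.0%, and in migratory dendritic cells 72.9% and 72.7%. Only 9 of 134 and 6 of 129 migratory dendritic cells had a Ccl3 UMI. Their shares after thinning had overlapping intervals, 2.27% [0.471 to 6.50] and 0.775% [0.0196 to 4.24]. Regulatory T cells and B cells were near the bottom of the order, with 32 and 7 Ccl3 UMIs and 12 and 3 UMIs, so their ratios of 0.271 [0.101 to 0.624] and 0.240 [0.0434 to 0.888] are imprecise.

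**Figure D2:**
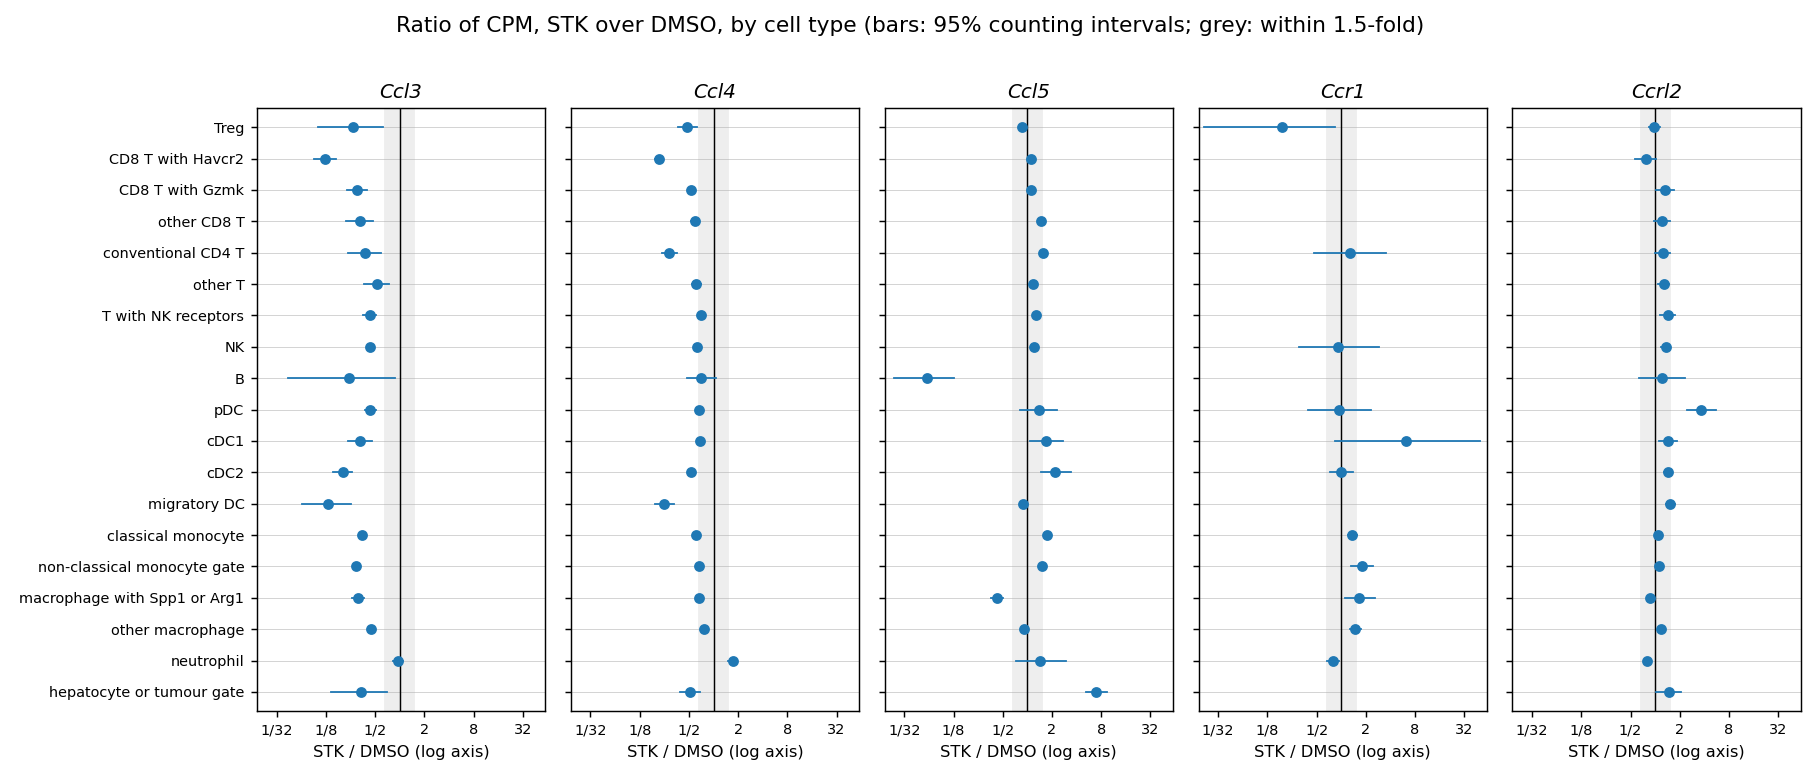
Ratio of CPM, STK over DMSO, for each gene and cell type on a log axis, with 95% counting intervals clipped at the edges of 0.02 and 50. The grey band spans 1.5-fold either way, and a type is drawn where the gene had at least 10 UMIs over both libraries and at least 1 in each. Ccl3 lies left of 1 in all 19 types, from 0.123 in CD8 T cells with Havcr2 to 0.955 in neutrophils.

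The share of cells with Ccl3 RNA was also lower in STK in several types. With every cell thinned to 1000 UMIs, 30.7% of DMSO and 15.3% of STK NK cells had a Ccl3 UMI, against 49.1% and 33% unthinned. The thinned share was 29.4% and 18.5% in macrophages without Spp1 or Arg1, and 22.2% and 10.4% in classical monocytes. In CD8 T cells with Havcr2 it was 19.7% and 3.27%. In pDC, at 239 and 105 CPM, the shares were 9.18% and 7.49%, with overlapping intervals. T cells with NK receptors, at 241 and 103 CPM, had 11.7% and 8.56%, also with overlapping intervals. Neutrophils had 23.6% in DMSO and 26.5% in STK. All of these shares were above the thinned background of the hepatocyte or tumour gate. Unthinned, 16 of 1084 DMSO cells and 6 of 789 STK cells of that gate had a Ccl3 UMI.

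**Figure D3:**
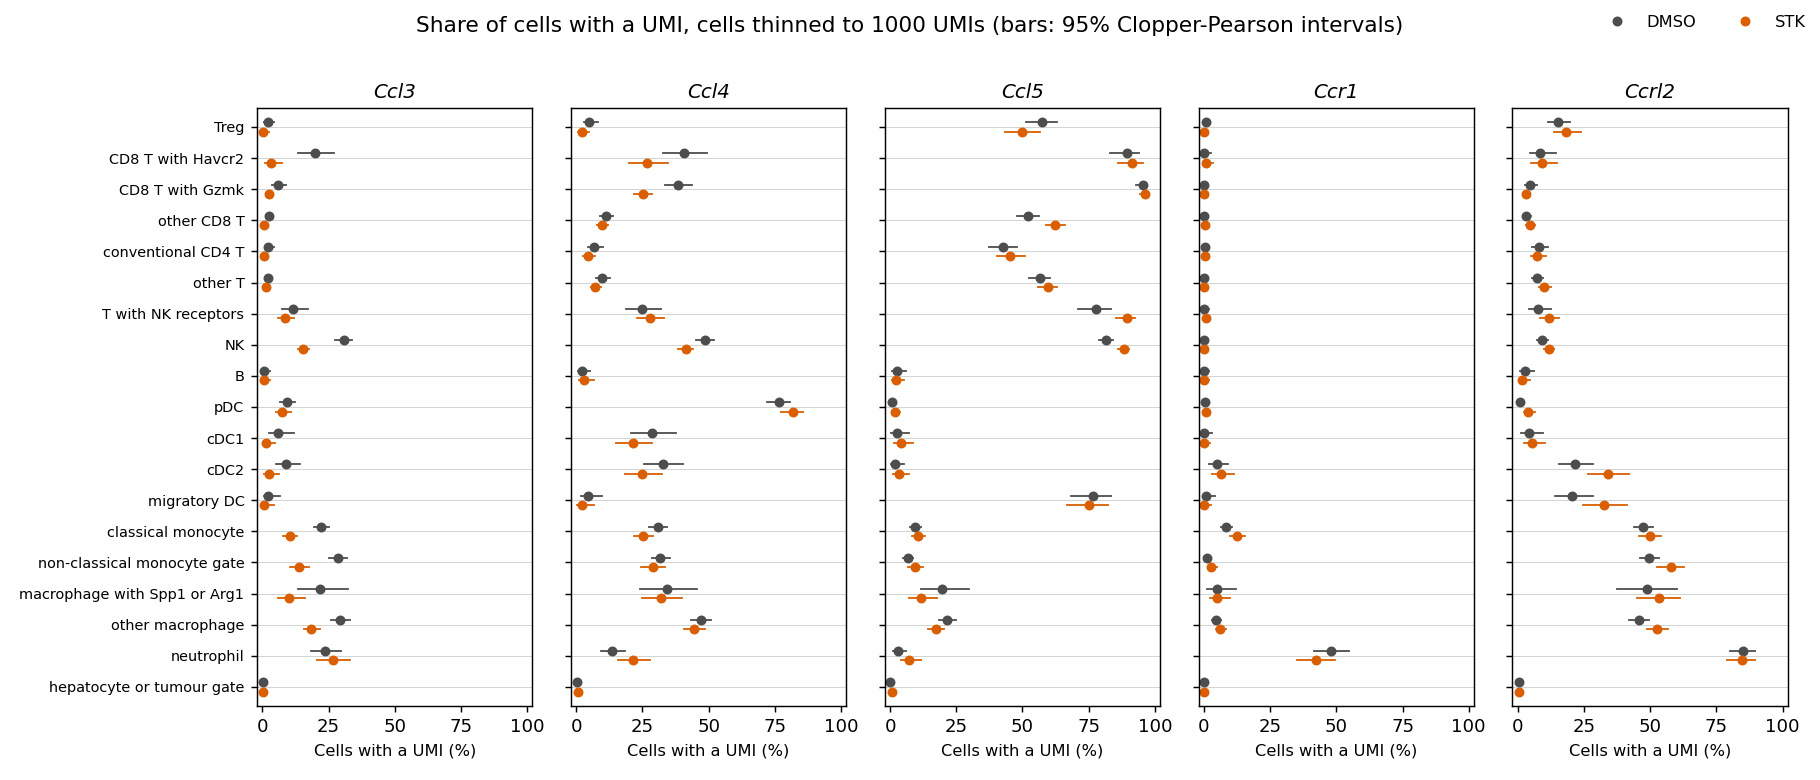
Share of cells with at least 1 UMI of each gene after thinning every cell to 1000 UMIs, with 95% Clopper-Pearson intervals, for DMSO (grey) and STK (orange). The Ccl3 share is lower in STK in NK cells (30.7% and 15.3%) and similar in neutrophils (23.6% and 26.5%), and the hepatocyte or tumour gate at the bottom gives the background.

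Ccl4, the neighbour of Ccl3, was lower in STK in 18 of the 19 types, but by less, with a median ratio of 0.619. It was at least 1.5-fold lower in 13 types and at least 1.5-fold higher in 1, the neutrophils. Of the 18 types where it met the minimum of the background, 12 were lower and 1 was higher. Plasmacytoid dendritic cells (pDC), the type known for type I interferon, held by far the most, with 8724 CPM [8593 to 8856] in DMSO and 5792 CPM [5689 to 5897] in STK. Their ratio of 0.664 [0.649 to 0.680] is 1.51 times lower and just inside the called size, and macrophages with Spp1 or Arg1, at 1474 and 984 CPM and a ratio of 0.667, were just outside it.

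NK cells were next in DMSO, at 2640 CPM, with 1640 CPM in STK and a ratio of 0.621 [0.604 to 0.638]. Macrophages without Spp1 or Arg1 had 2343 and 1804 CPM, a ratio of 0.770 that was not called. Classical monocytes had 1776 and 1091 CPM. In STK the NK level and the neutrophil level could not be separated by counting error, whereas in DMSO neutrophils, at 940 CPM, stood below NK cells, all macrophage and monocyte types and type 2 conventional dendritic cells. CD8 T cells with Havcr2 were again furthest from 1, with 1655 CPM in DMSO and 359 CPM in STK, 4.61 times lower. Conventional CD4 T cells had 279 and 80.4 CPM, and migratory dendritic cells 276 and 68.8 CPM, of which a single cell gave 38.2% and 37.3%. In both types few cells carried the gene, 42 and 29 CD4 T cells and 15 and 15 migratory dendritic cells.

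The thinned share of cells with a Ccl4 UMI was 48.7% in DMSO and 41.4% in STK for NK cells, and 40.8% and 26.8% for CD8 T cells with Havcr2. In pDC the share was 76.6% and 81.8%, the reverse of the CPM, so no order is read from it. The unthinned mean in pDC with a Ccl4 UMI was 48.8 UMIs per cell in DMSO and 34.3 in STK. T cells with NK receptors had shares of 25.0% and 27.8%, also against their CPM of 1023 and 708. Scrublet called 4.44% of these cells doublets in DMSO and 12.8% in STK, against 0.880% and 1.19% of all gated cells.

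Neutrophils differed from the other types in Ccl4. Their level was 940 CPM [851 to 1035] in DMSO and 1604 CPM [1485 to 1730] in STK, a ratio of 1.71 [1.51 to 1.93], in a type where 8.32% of 1202 genes were at least 1.5-fold higher and 6.07% at least 1.5-fold lower. The UMIs came from few cells, 41 of 284 in DMSO and 51 of 238 in STK, and the 3 cells with the most held 43.1% and 39.9% of them. With the top cell of each library left out the ratio was 1.80, and the thinned share was 13.5% and 21.4%. The difference from the other types was not tested.

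Ccl3 and Ccl4 were found together in single cells. In NK cells 84.1% of the DMSO cells with a Ccl3 UMI also had a Ccl4 UMI, against 49.6% of those without, and in STK these shares were 83.1% and 49.5%. In macrophages without Spp1 or Arg1 they were 81.0% and 42.1% in DMSO and 88.0% and 52.9% in STK. In neutrophils they were 30.4% and 9.30% in DMSO and 50.8% and 10.9% in STK. Cells with more UMIs are more likely to have both, and these shares were not thinned. Over the 19 types, log2 levels of Ccl3 and Ccl4 had a Pearson correlation of 0.906, a description of 19 points that share the 2 libraries.

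Within male cells, Ccl3 was below 1 in 9 of 9 types with enough cells, with a median ratio of 0.300, and Ccl4 in 11 of 11, with a median of 0.402. Male NK cells had 718 and 284 CPM of Ccl3, a ratio of 0.395, and 2623 and 868 CPM of Ccl4, a ratio of 0.331. Only 4 types held at least 50 female cells in both libraries. Female NK cells had 683 and 303 CPM of Ccl3, a ratio of 0.444 [0.388 to 0.508], and the female non-classical monocyte gate 983 and 210 CPM, a ratio of 0.213. Both types were therefore as low in Ccl3 within females as in all cells. Female Ccl4 ratios were 0.666 in NK cells and 0.597 in the non-classical monocyte gate, and 1.25 [0.865 to 1.85] in CD8 T cells with neither Havcr2 nor Gzmk, where female Ccl3 rested on 2 and 17 UMIs and had a ratio of 1.33 [0.315 to 11.9]. The remaining female type, the hepatocyte or tumour gate, had a Ccl4 ratio of 1.08. Some subsets just under the minimum of 50 cells went against the pooled Ccl4 direction: 45 female DMSO classical monocytes gave a ratio of 1.39 [1.19 to 1.63], 40 female DMSO macrophages without Spp1 or Arg1 one of 1.46 [1.30 to 1.65], and 34 male STK cells of the non-classical monocyte gate one of 1.20 [1.09 to 1.32]. Their Ccl3 ratios were 0.691, 0.536 and 0.267. Another such subset, 47 female DMSO T cells outside the named gates, gave a Ccl4 ratio of 2.11 [1.08 to 4.71], from 9 and 145 UMIs. Its Ccl3 ratio was also above 1, at 2.88 [0.466 to 119], from 1 and 22 UMIs.

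RNA of heat shock and immediate-early genes, which tissue dissociation can induce, also differed between the libraries. A UMI of Hspa1a or Hspa1b, the inducible heat shock genes, was found in 30.4% of DMSO and 2.35% of STK NK cells, in 68.6% and 16.4% of classical monocytes, and in 69.4% and 17.7% of macrophages without Spp1 or Arg1. Neutrophils had 7.04% and 2.10%. The summed level of 16 such genes was 10098 and 8715 CPM in NK cells, 24377 and 12311 CPM in classical monocytes and 17939 and 13652 CPM in neutrophils, but 8012 and 10762 CPM in the hepatocyte or tumour gate. At least 1.5-fold lower were 7 of 15 measured in NK cells, 9 of 15 in classical monocytes and 2 of 11 in neutrophils. Over all genes of these types 2.13%, 4.59% and 6.07% were. Fosb went the other way, at least 1.5-fold higher in STK in each of these leukocyte types. In conventional CD4 T cells 8 of 15 were lower, while Fosb, Junb, Atf3 and Ier2 were higher. The share over all genes was not taken for that type alone. Over all pairs of gene and type 3.76% were lower and 4.97% higher. The median log2 ratio in these CD4 T cells was -0.67 for the list and -0.05 for all genes. In cells with no UMI of either gene, Ccl3 was below 1 in 12 of 14 types with a median ratio of 0.427, and Ccl4 in 13 of 15 types with a median of 0.653. The types above 1 were regulatory T cells and neutrophils for Ccl3, and neutrophils and B cells for Ccl4, the latter at 6.95 from 4 and 39 UMIs. NK cells without them had 761 and 315 CPM of Ccl3, a ratio of 0.414, and macrophages 697 and 310 CPM, a ratio of 0.445, as low as in all cells of those types. Classical monocytes without them had 494 and 196 CPM, a ratio of 0.397. Macrophages with Spp1 or Arg1 were left with 25 DMSO cells, too few for those counts, and had ratios of 1.27 [0.811 to 2.07] for Ccl3 and 2.43 [1.89 to 3.18] for Ccl4. The part of the other stress genes in these differences was not tested.

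**Figure D4:**
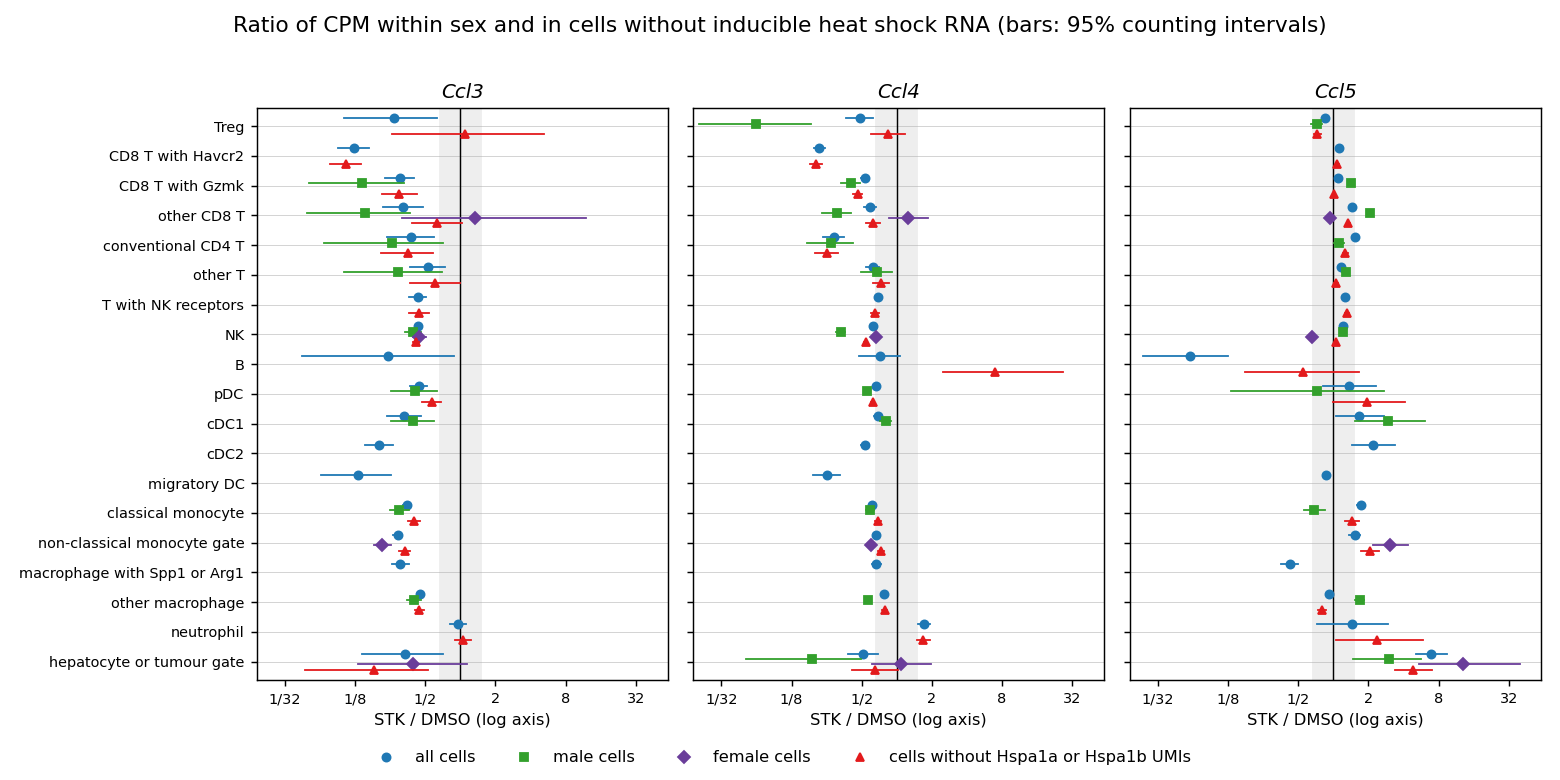
Ratio of CPM, STK over DMSO, on a log axis for the 3 ligands in all cells (circles), male cells (squares), female cells (diamonds) and cells without Hspa1a or Hspa1b UMIs (triangles), with 95% counting intervals clipped at 0.02 and 50. A subset is drawn where at least 50 cells per library and 10 UMIs remained. Ccl3 in NK cells lies between 0.395 and 0.444 in every subset.

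Ccl5 differed from the other ligands, with a median ratio of 1.26. It was at least 1.5-fold higher in STK in 6 types, at least 1.5-fold lower in 2, and below 1 in 5. Of the 15 types where it met the minimum of the background, 4 were higher and 2 lower. The cells with most Ccl5 differed little between the libraries. CD8 T cells with Gzmk had 11495 CPM [11335 to 11657] in DMSO and 12688 CPM [12553 to 12824] in STK, a ratio of 1.10, and CD8 T cells with Havcr2 7414 and 8250 CPM. Migratory dendritic cells had 8741 and 7635 CPM, a ratio of 0.873, and 1 DMSO cell gave 10.3% of its library's UMIs. In NK cells the levels were 5531 and 6711 CPM and the ratio 1.21 [1.19 to 1.23]. From the CD8 T cells with Gzmk down to the macrophages without Spp1 or Arg1, the first 10 types in the DMSO order had intervals that did not overlap with their neighbours.

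Other lymphocytes varied in their Ccl5 ratio. In conventional CD4 T cells the level was 1880 CPM in DMSO and 2911 CPM in STK and the ratio 1.55 [1.48 to 1.62], and CD8 T cells with neither Havcr2 nor Gzmk 2470 and 3609 CPM, a ratio of 1.46. T cells with NK receptors, the type with the most called doublets, had a ratio of 1.26 and T cells outside the named gates one of 1.16. Regulatory T cells, which restrain other T cells, went the other way, with 1715 and 1460 CPM and a ratio of 0.852 [0.804 to 0.902]. The thinned share of NK cells with a Ccl5 UMI was 81.6% and 88.3%, and that of CD8 T cells with Gzmk 95.3% and 96.3%.

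In myeloid cells Ccl5 was unevenly spread over cells. Classical monocytes had 278 and 477 CPM, a ratio of 1.72, but 1 STK cell held 652 of 1686 UMIs. With the top cell of each library left out they had 246 and 293 CPM, a ratio of 1.19 [1.09 to 1.30], and with 1 marker gene more required the ratio was 0.976. The non-classical monocyte gate had 209 and 319 CPM, and a ratio of 1.56 [1.39 to 1.74] without the top cells. Type 2 conventional dendritic cells had 24.9 and 54.7 CPM from 33 and 78 UMIs, and a ratio of 2.91 [1.68 to 5.26] without them. The direction in those dendritic cells changed with 1 marker gene more required. Macrophages with Spp1 or Arg1 had 458 and 194 CPM, a ratio of 0.423 [0.356 to 0.502], and 0.436 without the top cells. The ratio was 0.918 in the other macrophages, at 640 and 588 CPM. Genes of the macrophages with Spp1 or Arg1 as a whole had a median log2 ratio of 0.10, so the Ccl5 value there lies against a small shift upward.

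The lowest Ccl5 ratio was in B cells, at 0.0588 [0.0231 to 0.125], from 114 UMIs in 12 of 211 DMSO cells and 7 UMIs in 7 of 205 STK cells. A single DMSO cell held 83 of the 114. Without the top cell of each library the ratio was 0.184 [0.0629 to 0.449], and the median log2 ratio of all B cell genes was 0.12. The thinned shares were 2.60% and 2.06%. The direction in B cells also changed with the gate, to a ratio of 4.39 with 1 marker gene more required and 1.77 with 1 fewer. The hepatocyte or tumour gate had the highest ratio, 6.91 [5.17 to 9.39], at levels of only 2.06 and 14.2 CPM, and 80 of its 273 STK UMIs were in 1 cell. Its thinned shares were below 1% in both libraries.

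Within one sex, Ccl5 did not keep its direction in every type. Female NK cells had 7538 CPM in DMSO and 4986 CPM in STK, a ratio of 0.661 [0.636 to 0.688], whereas in males the levels were 4519 and 5495 CPM and the ratio 1.22 [1.17 to 1.27]. These rest on 70 female and 372 male cells of 831 in DMSO, and on 528 female and 139 male cells of 1148 in STK. All NK cells together had the male direction. Their STK level of 6711 CPM lay above that of either sex, so the pooled ratio also rests on cells whose sex was not assigned. Male classical monocytes had 266 and 183 CPM, a ratio of 0.687, opposite to the ratio in all cells. Male CD8 T cells with neither Havcr2 nor Gzmk had a ratio of 2.05, and female ones 0.944 [0.881 to 1.01].

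Ccr1, the receptor of Ccl3 and Ccl5, was a myeloid gene in these cells. Neutrophils held the most, with 679 CPM [604 to 761] in DMSO and 540 CPM [472 to 615] in STK, a ratio of 0.796 [0.666 to 0.949]. Classical monocytes followed at 106 and 145 CPM, a ratio of 1.36 [1.20 to 1.55]. Macrophages without Spp1 or Arg1 had 60.8 and 89.7 CPM, a ratio of 1.47, and type 2 conventional dendritic cells 58.8 and 59.0 CPM, a ratio of 1.00 [0.728 to 1.38]. Over 11 types with at least 10 UMIs the median ratio was 1.28, with 3 types at least 1.5-fold higher and 1 lower.

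The Ccr1 ratios past 1.5-fold were in 4 types. The non-classical monocyte gate had 23.1 and 41.1 CPM, a ratio of 1.78 [1.30 to 2.43], and macrophages with Spp1 or Arg1 50.9 and 85.1 CPM, a ratio of 1.67 [1.11 to 2.60]. Type 1 conventional dendritic cells had 1 and 9 UMIs, a ratio of 6.12 [0.848 to 268]. Regulatory T cells had 13 and 2 UMIs, a ratio of 0.190 [0.0208 to 0.840], and 8 of the 13 were in 1 cell. Of the 5 types where Ccr1 met the minimum of the background, 1 was higher and 0 were lower. In NK cells there were 7 and 9 UMIs among 831 and 1148 cells, and in the hepatocyte or tumour gate 6 and 0. In lymphocytes, including the CD8 T cells that made the most Ccl5, Ccr1 stayed below 10 CPM in both libraries.

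The thinned share of cells with a Ccr1 UMI was 48.1% in DMSO and 42.3% in STK for neutrophils, 8.31% and 12.5% for classical monocytes and 4.56% and 6.21% for macrophages without Spp1 or Arg1. Within male cells the ratio was 1.17 [0.902 to 1.51] in classical monocytes and 1.67 [1.26 to 2.20] in macrophages without Spp1 or Arg1. Of the 3 male types with enough cells and UMIs, the remaining 1 was at least 1.5-fold lower. The only such female type had a ratio of 1.74. In the cells without Hspa1a or Hspa1b UMIs the median Ccr1 ratio was 0.923 over 7 types, with 4 below 1, against 1.28 over all cells. Over all cells 4 of 11 types were also below 1. The 2 medians cover different sets of types, so no change of direction is read from them.

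Ccrl2, the chemerin-holding receptor, was found across leukocytes and led by neutrophils. Neutrophils had 5976 CPM [5750 to 6210] in DMSO and 4707 CPM [4501 to 4919] in STK, a ratio of 0.788 [0.742 to 0.835]. Macrophages and monocytes formed a second tier in both libraries. Macrophages with Spp1 or Arg1 had 1380 and 1184 CPM, the non-classical monocyte gate 1192 and 1348 CPM, macrophages without Spp1 or Arg1 1097 and 1287 CPM, and classical monocytes 1085 and 1191 CPM. The last 2 could not be separated by counting error in DMSO. Migratory dendritic cells and type 2 conventional dendritic cells came next, at 385 and 592 CPM and at 363 and 520 CPM. Among T cells, regulatory T cells held the most, 212 and 207 CPM.

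The median Ccrl2 ratio was 1.24 over 19 types, with 2 at least 1.5-fold higher and 0 lower, and 4 below 1. Of the 17 types where it met the minimum of the background, 2 were higher. Migratory dendritic cells had a ratio of 1.54 [1.35 to 1.75] and pDC one of 3.61 [2.43 to 5.51], from levels of 16.4 and 59.3 CPM. The pDC UMIs came from 12 of 415 DMSO and 21 of 376 STK cells. The neutrophil marker panel was at 8.73 CPM in DMSO pDC and 413 CPM in STK pDC, and its part in the Ccrl2 difference was not tested. The thinned share of Ccrl2 was 85.2% and 84.7% in neutrophils, 45.7% and 52.6% in macrophages without Spp1 or Arg1, 21.4% and 34.0% in type 2 conventional dendritic cells and 20.5% and 32.6% in migratory dendritic cells.

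The Ccl3 and Ccrl2 ratios can be set side by side in types that held much of both. In macrophages without Spp1 or Arg1 the ratio was 0.448 for Ccl3 and 1.17 [1.13 to 1.22] for Ccrl2, and in classical monocytes 0.349 for Ccl3 and 1.10 for Ccrl2. In neutrophils, which held the most Ccrl2, the order was the reverse, with 0.955 for Ccl3 and 0.788 for Ccrl2. In macrophages a Ccrl2 UMI was found in 84.6% of DMSO cells with Ccl3 and 54.3% of those without, and in STK in 90.8% and 77.0%. Within males the median ratio of Ccrl2 was 1.46 over 11 types, with 4 below 1, and within females it was above 1 in all 4 types.

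Other genes of the pathway were described from fixed lists in 4 types. Other ligands of Ccr1 (Ccl6, Ccl7, Ccl8 and Ccl9) met the minimum in 3 of 4 cases in classical monocytes. Ccl7, a monocyte attractant, had 86.3 CPM in DMSO and 289 CPM in STK, a ratio of 3.35, and Ccl6 and Ccl9 had ratios of 1.17 and 1.34. In macrophages without Spp1 or Arg1 all 4 were within 1.5-fold, from 0.974 for Ccl8 to 1.45 for Ccl9. In classical monocytes the ligands of Ccr2 were also higher, Ccl2 with 370 and 681 CPM and Ccl12 with 47.8 and 93.7 CPM, the 2 of 5 other CC ligands that met the minimum. In macrophages Ccl2 and Ccl12 had ratios of 0.899 and 1.38. The CC ligands of classical monocytes thus did not all follow Ccl3.

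Among other chemokine receptors, Ccr2, the receptor that brings monocytes into tissue, had ratios of 1.05 in classical monocytes, 1.05 in macrophages and 0.783 in NK cells. Cx3cr1, the fractalkine receptor, was at 58.2 and 90.9 CPM in macrophages, a ratio of 1.56. Cmklr1, the signalling receptor for chemerin, was the only gene of its 5-gene list to meet the minimum, in macrophages, at 69.8 and 52.7 CPM.

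Of 16 genes of receptor signalling, 14 met the minimum in NK cells, 12 in classical monocytes, 11 in macrophages and 9 in neutrophils, and 13, 11, 11 and 7 of these were within 1.5-fold. With the shares over all genes given above for these types, the 1, 1, 0 and 2 called are too few to say anything of the list. The exceptions included regulators of G protein signalling. Rgs2 was higher in NK cells, at 73.8 and 132 CPM, and in neutrophils, at 121 and 232 CPM, and Rgs1 was 1.81 times lower in neutrophils. The coupling protein Gnai2 had ratios between 0.939 and 1.01 in the 4 types.

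The list of factors that induce the ligands or govern the decay of their RNA moved unevenly. In NK cells 15 of 16 met the minimum, with 3 higher and 2 lower, beside 3.66% higher and 2.13% lower over all genes of that type. Zfp36, which binds AU-rich elements such as those shown above and speeds RNA decay, had 678 CPM in DMSO and 225 CPM in STK, 3.02 times lower, and its relative Zfp36l2 was 1.78 times lower. Irf8, Nfkbiz and Egr1 were higher, with ratios of 1.94, 1.66 and 2.32. In classical monocytes, with 14 measured and 5.25% of all genes higher and 4.59% lower, Zfp36 had 4077 and 1622 CPM and Zfp36l2 691 and 345 CPM, and Nr4a1 was 2.32 times lower, while Runx3 and Egr1 were higher. In macrophages, also with 14 and with 3.91% and 2.67% over all genes, Zfp36 was 1.80 times lower and Zfp36l2 1.63 times lower, and Egr1 was higher, at 65.3 and 234 CPM. In neutrophils 4 of 10 were lower, Zfp36 (2.10 times), Zfp36l2, Egr1 and Klf13, and 0 were higher, beside 6.07% and 8.32% over all genes. Zfp36, Egr1 and Nr4a1 are themselves immediate-early genes. The median log2 ratio of the list was 0.12 in NK cells, -0.17 in classical monocytes, -0.03 in macrophages and -0.36 in neutrophils, beside 0.00 to 0.02 in size for all genes of those types.

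Nfkb1, Rela and Nfkbia, the NF-kB factors and their inhibitor, were within 1.5-fold where they met the minimum in these 4 types. Nfkbia, a standard NF-kB target, had ratios of 1.02 in NK cells, 1.16 in classical monocytes, 1.37 in macrophages and 0.729 in neutrophils. Srgn, the proteoglycan core that packs chemokines into granules, was higher in NK cells, at 1037 and 1657 CPM, and in macrophages, at 758 and 1232 CPM, and had a ratio of 1.01 in neutrophils. Sdc4, a cell surface proteoglycan, was higher in classical monocytes, with a ratio of 1.74.

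The genes whose level over the 19 types was most like each member were found by the Pearson correlation of log2(CPM + 1), with the mean of both libraries in each type, among 6199 genes. For Ccl3 they were Pxn (0.900), Fcer1g (0.882) and Naip2 (0.865), and for Ccl4 Pik3ap1 (0.885) and Man1c1 (0.869). For Ccl5 they were AW112010 (0.964), Socs1 (0.913) and Insl6 (0.896). Ccr1 was most like Cxcl2 (0.95), Trem1 (0.942) and Clec5a (0.941), and Ccrl2 most like Dusp1 (0.939), Osm (0.932) and Myo9b (0.929). All 6 of the receptors' genes were highest in neutrophils. Ccr1 and Ccrl2 correlated at 0.873 with each other, and Ccl5 with Ccl3 at 0.087. These values describe 19 points that share 2 libraries.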

How the data were processed

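The deposited values are raw, unnormalized UMI counts for each gene in each barcode, written by Cell Ranger 6.0.2 per the file headers, on GRCm38 (mm10) per the submitters' processing notes. For intron counting and strand handling, the setting is not given in the sources used here.

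Barcodes with at least 500 UMIs, 250 genes and at most 10% mitochondrial UMIs were kept. This removed 632 DMSO and 826 STK barcodes, and 183 kept barcode sequences occur in both libraries. Cells were gated by marker UMIs, and doublets were not removed beyond the exclusion of mixed cells. Scrublet (scanpy 1.11.5, expected rate 8%) marked 2.99% and 4.27% of cells, and removing them is an alternative. Its automatic score threshold had failed in 1 library, so Otsu's method set the threshold in both. UMIs were summed per library and type in types with at least 50 cells. Ratios and intervals were computed with scipy 1.17.1 and tested on simulated counts. Alternatives changed the gates, depth, mitochondrial limit, doublets, scaling, summary, sex and top cells. The genes, lists and tests were chosen with earlier results of these data known, and 2 alternatives (cells without Hspa1a or Hspa1b UMIs, and pDC with phagocyte markers) and the 16 stress genes were added after the data were seen. Named beside the 5 genes are the 3 most correlated genes each, of which 1 for Ccl4 is not reported here, and the list genes furthest from equal. Nfkb1, Rela, Nfkbia, Gnai2 and Ccr2, and list genes given for comparison across types, were named after their values were seen. Sequences come from GENCODE vM21 and RefSeq.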

Additional observations from a re-analysis of the deposited data

Results flagged for a closer look

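In the types listed here the gene was at least 1.5-fold to the other side of the direction that most types showed, and none of these differences between types was tested. Ccl4 in neutrophils had a ratio of 1.71, against 18 types below 1. Ccl5 in B cells had a ratio of 0.0588 and Ccl5 in macrophages with Spp1 or Arg1 one of 0.423, against a median of 1.26. Ccr1 in regulatory T cells had a ratio of 0.190, from 13 and 2 UMIs, and one of 0.248 [0.00524 to 2.22] without the top cell of each library.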

How the results depend on the processing

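No paired analysis was possible because each group is 1 library. The 12 alternatives gave 900 values for 87 pairs of gene and type, of which 680 moved by less than their counting interval, 208 moved further and 12 changed direction from a called value. The Ccl3 median stayed between 0.287 and 0.427 under all 12. The Ccl4 median moved to 0.872 in female cells (4 types) and to 0.402 in male cells (11 types), the Ccl5 median to 2.01 and the Ccrl2 median to 1.60 in female cells. In female cells, CD8 T cells with neither Havcr2 nor Gzmk turned to 1.33 for Ccl3 and 1.25 for Ccl4, and the hepatocyte or tumour gate to 1.08 for Ccl4. That gate's Ccl4 ratio was also 1.82 with 1 marker fewer per gate and 1.02 without the top 1% of cells. Ccl5 in B cells was 4.39 with 1 marker more and 1.77 with 1 fewer. With 1 marker more, Ccl5 was 0.699 in type 1 and 0.928 in type 2 conventional dendritic cells and 0.976 in classical monocytes, where male cells gave 0.687. Ccl3 in regulatory T cells without Hspa1a or Hspa1b UMIs was 1.09, from 4 and 6 UMIs. The number of types called moved by over 1.5 times in cells without Hspa1a or Hspa1b UMIs, where Ccl4 was lower in 8 of 15 types against 13 of 19 and Ccrl2 higher in 7 of 15 against 2 of 19. Such moves also came for Ccrl2, higher in 5 of 19 with 1 marker fewer, with the mean of per-cell CPM or without the top 1% of cells, in 4 of 19 without doublets and in 5 of 11 in male cells, and for Ccr1, higher in 5 of 11 without doublets and in 0 of 7 in cells without Hspa1a or Hspa1b UMIs. Calls numbering 1 or 2 in the main values (Ccl4 higher, Ccl5 lower, Ccr1 lower) moved by 1 or 2 under some alternatives, and within-sex counts cover at most 11 types. The Ccr1 median ran from 0.923 to 1.74 over the 12. The cause was not tested in any of these. Depth limits Ccr1 most, with 1664 and 2195 UMIs in all kept cells.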

Other observations

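Basophils and mast cells were too few for the comparison, with 11 DMSO and 18 STK cells. The 18 STK cells held 83 Ccl3 UMIs (2611 CPM) and 182 Ccl4 UMIs (5725 CPM), a higher Ccl3 level than any type described above, but 74 of the 83 Ccl3 UMIs were in 1 cell. The 11 DMSO cells held 2 and 1 UMIs.

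Cells outside the gates also held these genes. The cells that met no gate had 400 CPM of Ccl3 in DMSO and 244 CPM in STK, and the mixed cells 201 and 112 CPM. The mixed cells gave 19.3% of all Ccl4 UMIs in DMSO and 28.8% in STK, at 2001 and 1576 CPM, and 253 and 352 of them carried both pDC and mononuclear phagocyte markers.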
